A study of Zea mays with 12 samples.

Results

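The comparison set resistant against susceptible maize (Zea mays) without the Bacillus strain BV-3. Its members were the 6 libraries labelled CK, taken by their labels out of the 12 of the series, with 3 labelled disease susceptible and 3 labelled disease resistant. The labels set CK beside BV-3 without spelling it out, and it is taken here as the group that got no BV-3. The other 6 libraries, 3 of each class with BV-3, entered no CK test and served as separate plants in which the CK differences could be read again. All were labelled whole body, and the labels number the 3 libraries of a group as replicate biosamples. The sources used here name no line, plant age, growth condition or harvest time, so resistant and susceptible are used as class labels only. The question was which genes differ between the classes, and in particular which differ in all 3 susceptible libraries and which in the first susceptible library alone.

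Maize lines are known to differ widely in gene content, so a gene counted in one line can be missing from another or too diverged for its reads to be placed. Resistance to leaf pathogens in maize draws on cell-surface receptor kinases, on intracellular receptors of the nucleotide-binding leucine-rich repeat (NLR) class, and on inducible defences such as pathogenesis-related proteins and phenolic compounds. Photosynthesis, nutrient status and stress hormones move with age, light and water supply and can differ between plants for reasons other than their line. Levels are given as FPKM, a fragment count scaled for the length of the gene and for the depth of the library.

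The CK libraries held 27.0 to 36 M counts and 33605 to 36470 genes with a count. They did not fall into the 2 labelled classes. The second and the third susceptible libraries had a Spearman correlation of 0.947 over genes, and the first and the third resistant libraries one of 0.953. The first susceptible library correlated with those 4 at 0.847 to 0.888, and the second resistant library correlated with every other at 0.711 to 0.788. These coefficients run across genes, which are not independent replicates. In bulk RNA, fewer cells of a type and less RNA per cell cannot be told apart.

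With BV-3, 256 genes were above 2 CPM (counts scaled to a fixed library total) in each susceptible library and at no more than 2 counts in each resistant one, and 328 genes showed the reverse. These lists came from BV-3 libraries alone. In the first library labelled CK susceptible, 98.4% of the 256 were above 1 CPM and 0.61% of the 328. In the second and the third, the shares were 0.781% and 1.56% of the 256, and 94.8% and 95.4% of the 328. The 3 CK resistant libraries stood at 0.0 to 1.17% of the 256 and at 93.9 to 97.9% of the 328. By these genes, the first library labelled CK susceptible resembled the BV-3 susceptible plants, while the second and the third resembled the BV-3 resistant plants and went against their label. The number of calls and the list medians are therefore also given without these 2 libraries, and the named genes by their value in each library. Over all tested genes, the median log2 fold change (resistant over susceptible) was 0.11 with all 6 libraries and 0.3 without these 2. It was 0.17 without the first susceptible library and 0.04 without the second resistant one, and list medians are to be read against these values.

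Across the 6 libraries, edgeR's quasi-likelihood test called 0 of 29698 tested genes (0.0%) at a Benjamini-Hochberg adjusted p under 0.05, and the smallest adjusted p was 0.581. With a common biological coefficient of variation of 0.713, 0 calls do not show that the classes were alike. At an unadjusted p under 0.05 it gave 2314 genes (7.79%), 1084 of them higher in the resistant libraries (3.65%) and 1230 higher in the susceptible ones (4.14%). DESeq2 called 274 genes (0.923%), 104 higher in resistant (0.35%) and 170 higher in susceptible (0.572%). Of those 274, 172 were apart by label as described in the next paragraph, a pattern read from the same 6 libraries. Over all tested genes, 0.296% were apart by label with resistant higher and 0.852% with susceptible higher. The pattern of the first susceptible library alone held for 1 call. DESeq2 gave no adjusted p to the 10 named genes alone higher there with the widest gap, so it could not call them. Of the 257 DESeq2 calls that were tested under BV-3, 28 (10.9%) were called there in the same direction and 4 in the opposite one, against 7.18% of the genes tested in both that were called there with resistant higher and 6.83% with susceptible higher. Without the second and the third susceptible libraries, edgeR again called 0 genes. When the second resistant library was left out as well, so that 1 susceptible library stood against 2 resistant ones and was assumed to vary as they do, 756 of 33570 genes (2.25%) were called, 491 higher in resistant and 265 higher in susceptible. The second and the third susceptible libraries were left out because they went against gene lists drawn from the BV-3 libraries. The direction of these calls under BV-3 is therefore no separate readout and is not given.

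Genes were then sorted by pattern, on CPM with 0.5 added and with no test. A gene was apart by label when the lowest library of one class was at least 2 times the highest of the other. This held for 88 genes higher in resistant (0.296%) and 253 higher in susceptible (0.852%). On FPKM the split was 128 and 120, so the excess of susceptible-higher genes depended on the scaling. Over all genes of the table it was 81 (0.153%) and 273 (0.516%). Leaving out 1 library, which leaves fewer values to separate, gave 149 to 349 and 274 to 757 genes. The groups did not overlap, at any distance, in 2701 genes higher in resistant (9.09%) and 3079 higher in susceptible (10.4%). A gene was apart in 1 library alone when that library was at least 4 times above, or 4 times below, each of the 5 others. The first susceptible library was alone higher in 210 tested genes (0.707%) and alone lower in 579 (1.95%). The test's filter asks for counts in several libraries. Over all 52932 genes of the table, scaled over the 12 libraries, it was alone higher in 955 genes (1.8%) and alone lower in 567 (1.07%), and 490 of the 955 had at most 2 counts in any of the 5 others.

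**Figure D1:**
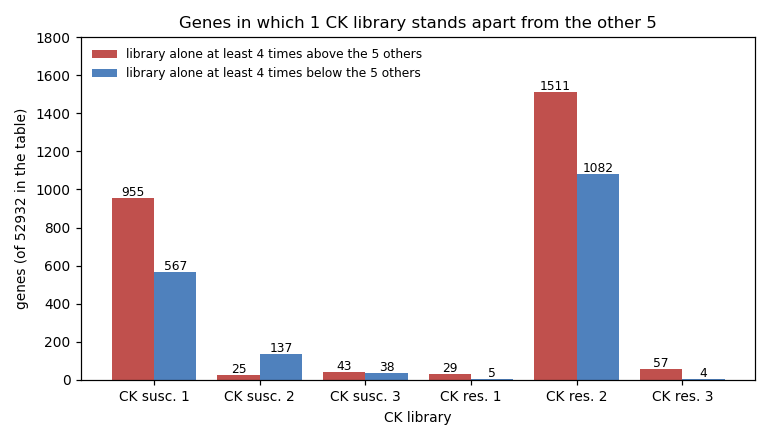
Bars give, for each CK library on the x axis, the number of genes of the whole table in which it alone was at least 4 times above (red) or below (blue) each of the 5 others. The first susceptible library stood alone in 955 and 567 genes and the second resistant library in 1511 and 1082, while the other 4 stood alone in 4 to 137 genes per direction.

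The second resistant library also stood apart, higher in 1321 tested genes and lower in 1092, more than the first susceptible library. The other 4 libraries were alone in 4 to 135 tested genes per direction. At the limits of the rules, the genes just inside and just outside the label pattern stood at 2.001 and 1.999 times in the resistant direction. For the first susceptible library alone higher, these values were 4.004 and 3.982 times.

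The named genes in which the first susceptible library was alone lower had the widest gaps and were at or near 0 in it. The whole class also held genes at low levels in the other libraries, since it numbered 249 rather than 579 with 2 CPM added in place of 0.5. The count of the first susceptible library was 0 in 384 of the 579 (66.3%). A vacuolar proton-pumping pyrophosphatase (Zm00001eb248980), which acidifies the vacuole using pyrophosphate, was at 0 FPKM in the first susceptible library, at 55.4 and 50.5 in the second and the third, and at 67.5, 45.0 and 92.6 in the resistant ones. Against a floor of 3 counts in that library, its level was at least 1378-fold lower than the mean of the other 5. A gene described as vacuolar proton pump 1 of the same kind, Zm00001eb099760, had the mirror pattern, with 87.5 FPKM in the first susceptible library, 0.356 and 1.05 in the second and the third, and 0.541, 0.49 and 1.57 in the resistant ones. The BV-3 libraries split these genes by class, with 65.9 to 75.4 FPKM of Zm00001eb099760 in susceptible and 0.415 to 0.528 in resistant plants. The pump Zm00001eb248980 stood under BV-3 at 0.0187 to 0.204 in susceptible and 25.9 to 45.1 in resistant plants.

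Housekeeping functions were among the genes lowest in the first susceptible library. NUP96 (Zm00001eb075600), a scaffold protein of the nuclear pore, was at 0 FPKM there and between 40 and 51.4 in the other 5 CK libraries, at least 567-fold lower than their mean. The DEAD-box RNA helicase 7 gene (Zm00001eb391860) was at 0.0851 against 37.7 to 54.6. A putative VIP2 (NewGene_4809), a subunit of the NOT complex, which acts in mRNA turnover, was at 0 against 16.7 to 31.6 FPKM, at least 964-fold lower. Both BV-3 classes again separated, since NUP96 was listed at 0 in all 3 susceptible BV-3 libraries and at 16.2 to 29.6 in the resistant ones (adjusted p = 0.00195 by edgeR). VIP2 was likewise at 0 in the susceptible plants and at 17.5 to 21.5 in the resistant ones.

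Sequences derived from mobile elements were in this class too. A gene described as the transposase-derived protein RICESLEEPER 1-like (NewGene_17546) stood at 0.0616 FPKM in the first susceptible library and at 270 to 628 in the other 5. RICESLEEPER 2 (NewGene_3481) was at 0 against 56.3 to 71.6, at least 2229-fold lower, and a gag-pol polyprotein gene (NewGene_13058), named after retroviral structural and enzyme genes, was at 0 against 8.26 to 18.9, at least 901-fold lower. Of the 579 genes, 12 (2.07%) were transposon-derived by description, against 0.414% of tested genes, and 335 (57.9%) were models beyond the annotation, against 13.3%. A guanylate-binding family protein (NewGene_23614), of a family of large GTPases with immune roles known from animals, was at 0.142 FPKM against 28 to 58.6. A putative galacturonosyltransferase-like 4 (NewGene_29730), of an enzyme family that builds cell-wall polysaccharides, was at 0.041 FPKM against 31.9 to 55.4.

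Named genes in which the first susceptible library was alone higher included a glutathione S-transferase, a related protein, a protein kinase and a threonine aldolase. Of 65 tested glutathione S-transferases, 2 (3.08%) were alone higher, against 0.707% of all tested genes, and 1 (1.54%) alone lower, against 1.95%. A glutathione S-transferase (Zm00001eb138300), which joins glutathione to toxic compounds, was at 51.7 FPKM in the first susceptible library, at 0.216 and 0.208 in the second and the third, and at 0.631, 0 and 2.75 in the resistant libraries. IN2-1 (Zm00001eb354650), a glutathione S-transferase-like protein induced by herbicide safeners, was at 35.7 FPKM against 0 to 1.46. A probable serine/threonine-protein kinase (NewGene_12446) was at 30.4 against 0.199 to 0.994, and a low-specificity threonine aldolase 2 (Zm00001eb017590), which cleaves threonine to glycine, was at 70.4 against 2.51 to 4.11. All 4 were called under BV-3 with susceptible plants higher, at log2 fold changes of -4.02 ± 0.77, -6.56 ± 1.08, -6.04 ± 0.3 and -4.93 ± 0.25 (SE, n = 3 and 3).

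A RING finger gene (Zm00001eb411520), of the family that includes many ubiquitin ligases, was at 39.4 FPKM in the first susceptible library and at 0 to 0.462 in the other 5. Under BV-3 it stood at 1.39, 4.95 and 4.55 in susceptible plants, below the CK value, and at 0 to 0.193 in resistant ones. Receptor and transport genes had this pattern too. An LRR receptor-like kinase gene (Zm00001eb070510), of the pattern-triggered immunity list, was at 13.7 FPKM in the first susceptible library against 0.425 to 1.12, and the UDP-galactose/UDP-glucose transporter 7 gene (Zm00001eb422880), which carries sugar nucleotides between compartments, was at 17.5 against 0.202 to 0.58. Of the 210 genes, 61 (29.0%) were models beyond the annotation, against 13.3% of tested genes. So were 527 (55.2%) of the 955 found without the filter, against 24.9% of all genes of the table.

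**Figure D2:**
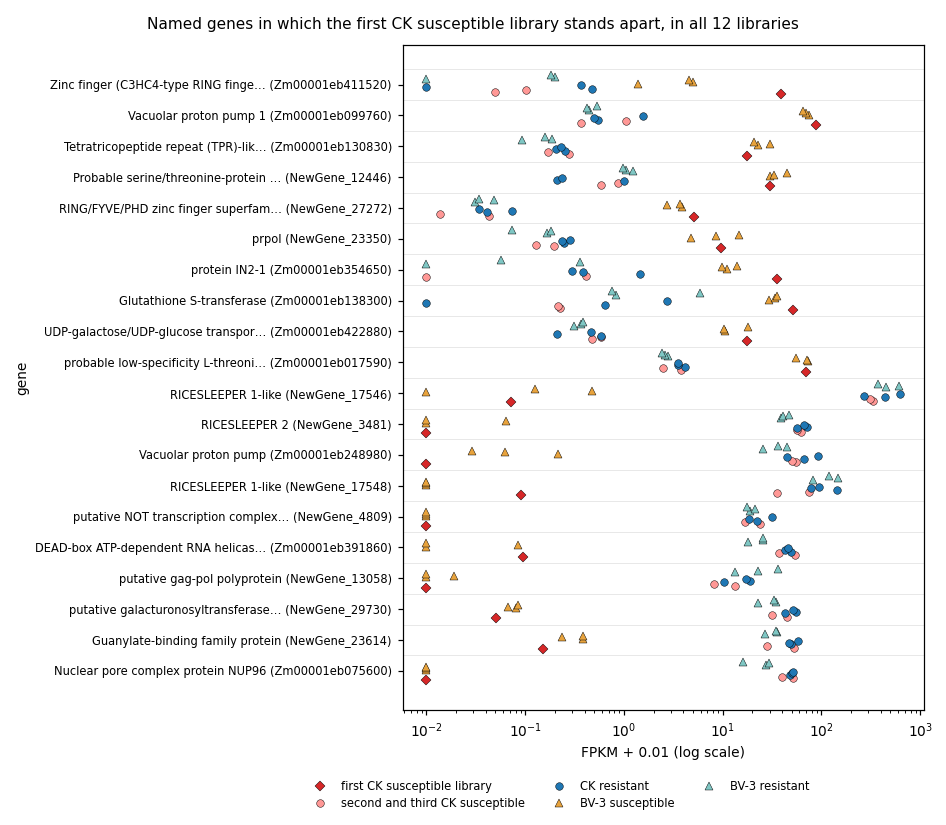
Each point is the FPKM of 1 of 20 named genes in 1 of the 12 libraries, on a logarithmic x axis after adding 0.01, with diamonds for the first CK susceptible library, circles for the other CK libraries and triangles for BV-3. In both directions the diamond lies on the side of the BV-3 susceptible triangles, and the second and the third CK susceptible libraries lie with the resistant ones.

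Some functions had genes in both directions. Over the whole table the genes alone higher in the first susceptible library carried 368 different descriptions and those alone lower 220, and 23 descriptions occurred in both. Some of the shared descriptions name broad families, and the overlap to be found between other sets of genes was not tested. The vacuolar pump was one, with Zm00001eb099770 alone higher and Zm00001eb248970 and Zm00001eb248980 alone lower. Disease resistance protein RPM1, named after an Arabidopsis NLR receptor that senses bacterial effectors, had 3 genes in each direction, and RPP13-like protein 1, another NLR, had 1 in each. Actin-7 and the splicing factor SR45a also had members in both directions. Over the whole NLR list, of 115 tested genes 8 (6.96%) were alone lower in the first susceptible library, against 1.95% of all tested genes. The 1 gene alone higher and the 1 apart by label with susceptible higher (0.87% each) were near the shares of all genes, 0.707% and 0.852%. Near-identical copies share reads, and no source used here says how the authors' counter placed those.

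Read in the BV-3 libraries, genes of the first susceptible library alone separated the classes. Of the 576 alone lower genes tested there, 544 (94.4%) were called with resistant plants higher, against 7.18% of the 28503 genes tested in both, and the median log2 fold change was 9.05. Of the 203 alone higher genes, 150 (73.9%) were called with susceptible plants higher, against 6.83%, with a median of -3.35. The classes apart by label gave other values. Of 77 label genes higher in CK resistant libraries, 18 (23.4%) were called with resistant higher under BV-3 and the median was 1.08. Of 243 label genes higher in CK susceptible libraries, 17 (7.0%) were called in the same direction, near the background of 6.83%, 123 (50.6%) had the same sign, and the median was -0.01.

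**Figure D3:**
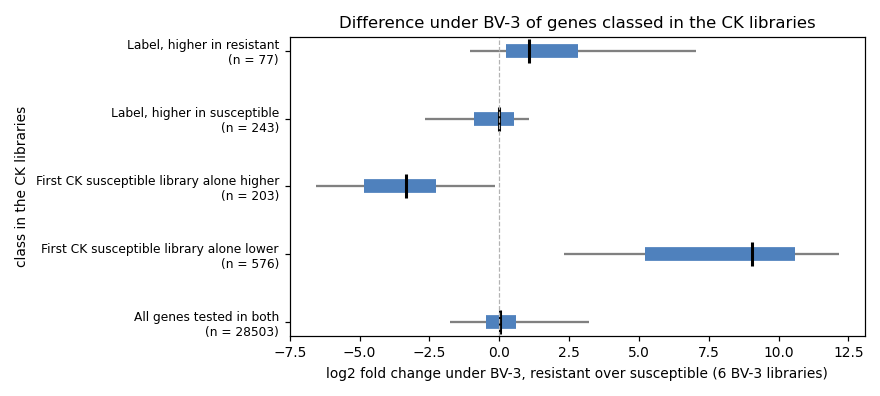
For each class of genes defined in the CK libraries, the black tick is the median log2 fold change (resistant over susceptible) in the 6 BV-3 libraries, the thick bar the middle 50% of genes and the thin line the 5th to 95th percentile. The 2 classes of the first susceptible library lie at medians of -3.35 and 9.05, and the label genes higher in susceptible are centred at -0.01, close to the median of 0.03 over all genes tested in both.

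Genes apart by label and higher in all 3 resistant libraries included genes of the response to abscisic acid, the hormone of drought and of closing stomata. Dehydrin DHN1 (Zm00001eb285360), a protective protein made under water loss, was at 1.73, 2.99 and 0.16 FPKM in the susceptible libraries and at 23.3, 29.8 and 121 in the resistant ones. Its log2 fold change was 4.86 ± 1.12 (SE, n = 3 and 3; adjusted p = 0.581 by edgeR and 0.000619 by DESeq2). The protein phosphatase 2C 37 gene (Zm00001eb419870), of a clade that restrains abscisic acid signalling, stood at 0.237, 1.76 and 0.653 against 25.8, 9.3 and 39.0. The abscisic acid receptor PYL4 (Zm00001eb396710) lay the other way, at 3.91, 6.46 and 8.87 in susceptible and 1.49, 1.18 and 1.48 in resistant libraries. Of 153 tested genes of the abscisic acid, dehydrin and LEA list, 16 (10.5%) had an unadjusted p under 0.05 with resistant higher, against 3.65% of all tested genes, and 6 (3.92%) with susceptible higher, near the 4.14% of all. The list's median log2 fold change was 0.08 against 0.11 for all genes, and 0.22 against 0.3 without the second and the third susceptible libraries. Under BV-3, phosphatase 37 stood at 2.38, 2.35 and 4.75 FPKM in susceptible and 1.4, 5.84 and 0.474 in resistant plants, which overlapped.

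The named genes higher in all 3 resistant libraries also included an ATPase of recombination, a lipid kinase and a pair of cell wall proteins. FIGL1 (Zm00001eb339080), an AAA ATPase whose Arabidopsis counterpart limits meiotic crossovers, was at 0.499, 0.492 and 0.305 FPKM in susceptible and 8.76, 5.02 and 18.4 in resistant libraries, a log2 fold change of 4.25 ± 0.57. A putative phosphatidylinositol-3-phosphate 5-kinase (Zm00001eb076550), which makes a lipid signal of the endomembranes, was at 0.292, 0.42 and 0.352 against 3.83, 4.04 and 9.57. Beta-expansin 7 (Zm00001eb023420), which loosens cell walls, was at 0.621, 0.779 and 0.554 against 24.0, 4.0 and 7.48, and a beta-D-xylosidase 7 (Zm00001eb199060), which trims wall polysaccharides, at 0.439, 0.252 and 0.115 against 11.6, 6.05 and 3.27. Over the list of 106 tested expansins, xyloglucan enzymes and cellulose synthases, 4 had an unadjusted p under 0.05 in each direction (3.77%), near the 3.65% and 4.14% of all genes. The groups overlapped for all 4 named genes under BV-3, where FIGL1 stood at 0.33 to 0.904 in susceptible and 0.0377 to 3.58 in resistant plants.

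A few named label genes were called by edgeR under BV-3 in the same direction. TIFY 3 (Zm00001eb164160), of the family of jasmonate repressors, stood at 0.12, 0.225 and 0.177 FPKM in susceptible and 4.72, 1.82 and 7.81 in resistant CK libraries, and under BV-3 at 0.286, 0.774 and 0.571 against 3.67, 15.9 and 8.98 (log2 fold change 3.76 ± 0.66, adjusted p = 0.00972). A chloroplast small heat shock protein (Zm00001eb235800), a chaperone, was at 0.633, 1.93 and 2.6 against 8.86, 17.0 and 12.0, and under BV-3 its log2 fold change was 2.74 ± 0.61 (adjusted p = 0.0234). A putative cysteine-rich receptor-like kinase (Zm00001eb369970) lay higher in susceptible libraries, at 6.33, 1.99 and 2.79 against 0.585, 0.166 and 0.969, and under BV-3 at -4.73 ± 0.56 (adjusted p = 0.00347). Phosphoribulokinase (Zm00001eb072030), which makes the carbon dioxide acceptor of the Calvin cycle, stood at 30.4, 16.9 and 11.9 against 6.26, 1.23 and 5.58, and under BV-3 at -1.7 ± 0.4 (adjusted p = 0.0279). These 4 were the only named label genes called under BV-3 in the CK direction. Of all label genes higher in resistant, 18 of 77 tested there (23.4%) were called so, against 7.18% of the genes tested in both. For label genes higher in susceptible it was 17 of 243 (7.0%), near the 6.83% of the genes tested in both.

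Genes higher in all 3 susceptible libraries included many of photosynthesis. Photosystem II 5 kDa protein (Zm00001eb245320) stood at 1100, 1104 and 1296 FPKM in the susceptible libraries and at 347, 49.2 and 432 in the resistant ones. Photosystem I subunit d1 (Zm00001eb212520), which docks ferredoxin, was at 165, 70.6 and 111 against 35.3, 3.09 and 26.0. In both, the second resistant library was the lowest. Of 63 tested photosystem and light-harvesting genes, 12 (19.0%) were apart by label with susceptible higher, against 0.852% of all tested genes. With resistant higher there were 0, against 0.296%. At an unadjusted edgeR p under 0.05, 14 (22.2%) had susceptible higher, against 4.14%, while DESeq2 called 0 in either direction. The median log2 fold change of the list was -1.95. It was -1.46 without the second resistant library, -1.96 without the first susceptible one and -1.98 without the second and the third susceptible ones. The summed FPKM of the list's 110 genes was 48025, 35765 and 46290 in susceptible and 21488, 1698 and 14717 in resistant libraries. Under BV-3 the list's median was 0.19.

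Carbon fixation genes lay in the same direction. Of 44 tested genes of the C4 and Calvin cycle list, 9 (20.5%) were apart by label with susceptible higher, against 0.852% of all tested genes, and 0 with resistant higher. DESeq2 called 3 (6.82%) with susceptible higher, against 0.572%. The median log2 fold change was -0.98, and it was -0.65 without the second resistant library, -0.55 without the second and the third susceptible ones, and -0.0 under BV-3. A model for NADP-dependent malic enzyme (NewGene_19059), which releases carbon dioxide in the bundle sheath of C4 leaves, was at 7.93, 0.907 and 4.9 FPKM in susceptible libraries and listed at 0 in all 3 resistant ones, so no fold is given. Under BV-3 it was present in both classes, at 6.24 to 8.99 in susceptible and 5.22, 0 and 5.37 in resistant plants. Early light-induced protein (Zm00001eb116960), which binds chlorophyll under light stress, was at 5.29, 7.69 and 6.71 FPKM against 0.953, 0.633 and 0.701, with a log2 fold change of -3.34 ± 0.55.

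Regulators and stress proteins were among the label genes higher in susceptible libraries. CONSTANS-LIKE 16 (Zm00001eb379950), of a family of light-responsive regulators, was at 83.3, 108 and 81.3 FPKM against 19.3, 0.812 and 23.3. A chaperone dnaJ 11 (Zm00001eb228100), which assists the heat shock protein 70 chaperones, was at 32.3, 34.6 and 23.2 against 1.83, 1.2 and 4.81, with a log2 fold change of -3.81 ± 0.58. Lichenase-2 (Zm00001eb286760), which cuts mixed-linkage glucans of grass cell walls, was at 63.8, 155 and 52.8 against 3.59, 0.469 and 12.3. MYB42 (NewGene_13001), of the MYB transcription factor family, was at 10.2, 17.8 and 7.24 against 0.59, 0.585 and 1.87. Under BV-3 MYB42 overlapped between the classes, at 4.18 to 19.8 and 4.86 to 15.0.

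**Figure D4:**
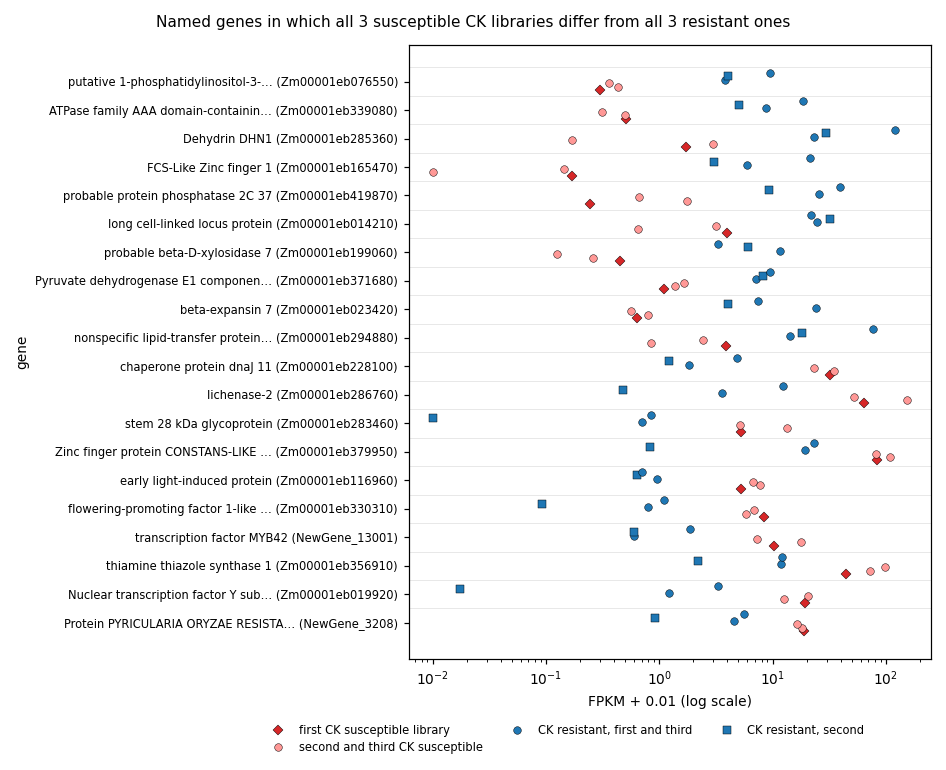
Each point is the FPKM of 1 of 20 named label genes in 1 of the 6 CK libraries, on a logarithmic x axis after adding 0.01, with the first susceptible library as a diamond, the second and the third as pale circles and the second resistant library as a square. The upper 10 genes are higher in all 3 resistant libraries and the lower 10 in all 3 susceptible ones, and for each of the lower 10 the square is the lowest point.

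Some genes of nitrogen and phosphate nutrition were apart by label, and most members of both lists were not. Of 39 tested nitrogen genes, 8 (20.5%) had an unadjusted p under 0.05 with susceptible higher, against 4.14% of all tested genes, and 1 (2.56%) with resistant higher, against 3.65%. By label, 3 (7.69%) were apart with susceptible higher, against 0.852%, and 1 (2.56%) with resistant higher, against 0.296%. Ammonium transporter 1 member 2 (Zm00001eb247430) was at 1.36, 1.81 and 1.74 FPKM in susceptible libraries and 0.242, 0.33 and 0.12 in resistant ones. A nitrate reductase (Zm00001eb193390), which makes nitrite, was at 2.34, 1.95 and 1.08 against 0.301, 0.284 and 0.0344. Of 44 phosphate starvation genes, 6 (13.6%) had such a p with susceptible higher, against 4.14%, and 1 (2.27%) with resistant higher, against 3.65%. By label, 2 (4.55%) of them were apart with susceptible higher, against 0.852%, and 1 (2.27%) with resistant higher, against 0.296%. SPX domain-containing protein 1 (Zm00001eb205600), a repressor of the phosphate starvation response, was at 25.5, 51.5 and 44.7 against 10.5, 9.8 and 14.9, and the phosphate exporter PHO1-3 (Zm00001eb281630) at 19.4, 30 and 30.3 against 8.07, 2.28 and 7.85. The nitrogen median was -0.29 against 0.11 for all genes. It was -0.53 against 0.3 without the second and the third susceptible libraries, and -0.16 against 0.17 without the first. The phosphate median was -0.39 against 0.11. It was -0.06 against 0.04 without the second resistant library, and 0.01 against 0.3 without the second and the third susceptible ones.

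Few genes of the defence lists were apart by label. Of 103 tested pathogenesis-related, chitinase and antimicrobial genes, 3 (2.91%) were apart by label with resistant higher, against 0.296% of all tested genes, and 1 (0.971%) with susceptible higher, against 0.852%. The median log2 fold change was 0.54, but 0.19 without the second resistant library, 0.46 without the second and the third susceptible ones and -0.11 without all 3. The same medians over all tested genes were 0.11, 0.04, 0.3 and 0.11. A Bowman-Birk type wound-induced proteinase inhibitor (Zm00001eb125590), which blocks digestive proteases of feeding insects, was at 9.88, 7.45 and 15.9 FPKM in susceptible libraries and 54.4, 115 and 72.2 in resistant ones, a log2 fold change of 2.54 ± 0.46. Pathogenesis-related protein 1 (Zm00001eb013990), a marker of induced resistance, was at 1.2, 1.79 and 2.7 against 15.6, 5.48 and 13.6 and did not overlap. Of 104 WRKY and 87 pattern-triggered immunity genes, 0 were apart by label. Of 139 wall-associated, cysteine-rich and lectin receptor kinases 2 (1.44%) were, with susceptible higher. With shares over all tested genes of only 0.296% and 0.852%, such counts do not set these 3 lists apart from other genes. An RPM1 gene (Zm00001eb164890) stood at 2.37, 2.61 and 2.92 FPKM in susceptible and 1.1, 0.39 and 1.5 in resistant CK libraries, and with the opposite direction under BV-3, at 2.56, 1.82 and 1.68 against 7.7, 4.72 and 6.52. The adjusted p of that difference between treatments was 0.232 by edgeR.

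Hormone lists differed in direction between members. Of 142 ethylene genes, 12 (8.45%) had an unadjusted p under 0.05 with resistant higher, against 3.65% of all tested genes, and 2 (1.41%) with susceptible higher, against 4.14%. The list's median log2 fold change was 0.07 against 0.11 for all genes, and 0.15 against 0.3 without the second and the third susceptible libraries. ACC oxidase 1 (Zm00001eb357070), which makes ethylene, was at 1.57, 0.656 and 1.74 FPKM in susceptible libraries and 6.82, 51.3 and 6.82 in resistant ones. Jasmonate O-methyltransferase (Zm00001eb267640), which forms methyl jasmonate, a volatile, lay higher in susceptible libraries, at 4.88, 3.61 and 3.54 against 0.622, 0.293 and 0.746. The auxin efflux carrier 5a gene (Zm00001eb143310) was at 7.93, 19.4 and 15.2 against 3.93, 2.11 and 4.09, and lay higher in susceptible libraries as well. It was the 1 of 140 tested auxin genes (0.714%) with an unadjusted p under 0.05 and susceptible higher, against 4.14%. With resistant higher there were 7 (5.0%), against 3.65%, among them auxin response factors 6 (Zm00001eb207450) and 12 (Zm00001eb433460). The auxin median was 0.22, against 0.11 for all tested genes. The median log2 fold change of the 61 tested jasmonate genes was -0.23. It turned to 0.5 without the first susceptible library and to 0.01 without the second resistant one, and was -0.89 without the second and the third susceptible ones. The same 3 medians over all tested genes were 0.17, 0.04 and 0.3. The first susceptible library stood at a centred median of 1.12, above the 5 others at -0.85 to 0.59.

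Ribosomal proteins, histones and cell cycle genes differed by the second resistant library. Of 309 cytosolic ribosomal proteins, the median log2 fold change was 1.01 with all 6 libraries and -0.33 without that library. For 48 histones these values were 1.18 and -0.23, and for 171 cyclins, kinesins and replication genes 0.74 and -0.01. The direction of all 3 lists in the CK libraries therefore rested on the second resistant library. Without the second and the third susceptible libraries instead, the medians were 0.92, 1.18 and 0.78, against 0.3 over all genes. Under BV-3 the medians of the 3 lists were 0.49, 1.1 and 0.42, with resistant higher, against 0.03 over all genes. How far single BV-3 libraries carried these medians was not tested. Histone H4 variant TH011 (Zm00001eb428040), part of the nucleosome core, overlapped between the BV-3 classes. It stood at 11.8, 170 and 66.1 FPKM in resistant and 33.4, 42.9 and 9.91 in susceptible plants. In CK it was at 211 FPKM in the second resistant library, at 16.5 and 23.5 in the other resistant ones and at 22.4, 7.65 and 2.07 in the susceptible ones. In the same library the summed FPKM of 21 root marker genes was 583, against 83.5 to 302 in the others, and that of 89 pollen and anther genes 487, against 174 to 281. A few genes carried these sums. The cortical cell-delineating protein genes Zm00001eb023070 and Zm00001eb391690, markers of the root cortex, were at 211 and 217 FPKM in it, while another of that description, Zm00001eb000450, was at 3.3 in it and at 60.9 to 292 in the other 5. The pollen-specific protein BAN102 (Zm00001eb189300) was at 126 in it and at 1.06 to 26.1 in the others. The centred medians of the second resistant library were 0.39 over 7 tested root markers, below the 1.43 of the first susceptible library, and -0.05 over 36 tested pollen and anther markers. The photosystem sum was 1698 against 14717 to 48025. Seed storage genes summed to 0.203 to 3.57 in the 6 libraries, with 27 of 40 at 0 in all. The part of tissue makeup in these results was not tested.

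**Figure D5:**
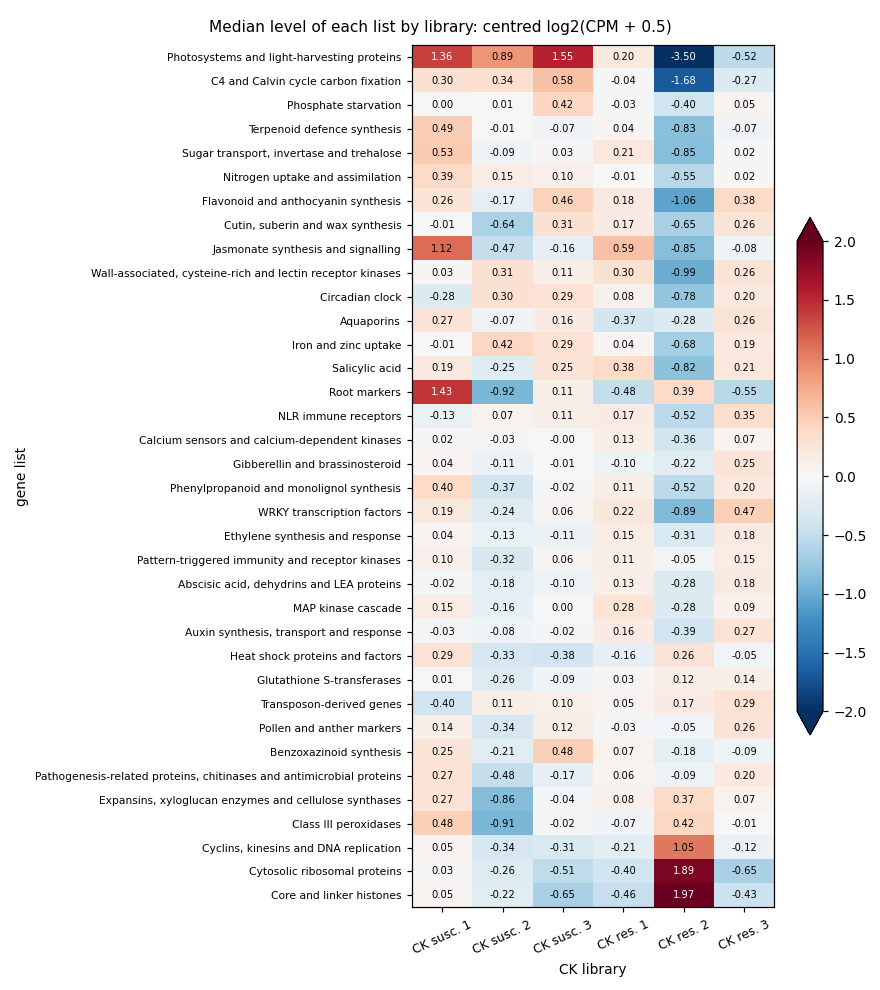
Each cell gives, for a list of genes (y axis) and a CK library (x axis), the median over tested members of log2(CPM + 0.5) centred on the gene's mean of the 6 libraries, with lists ordered by the median log2 fold change. The second resistant library has the most extreme values, -3.5 for photosystems and 1.97 for histones, and the photosystem list is at 0.89 to 1.55 in the 3 susceptible libraries.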

How the data were processed

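The authors deposited 1 table of raw counts and FPKM per gene and library, per the file headers; the FPKM normalization is theirs. Per the submitters' processing notes the build was B73 RefGen version 4, but the gene identifiers look like those of a later annotation, so which annotation was counted, and what the models beyond it are, is uncertain; no source used here names the aligner or counter. Of 52934 lines, 2 named no gene and were dropped. Counts of the 6 CK and, separately, the 6 BV-3 libraries were tested with edgeR 4.0.16 (R 4.3.3; TMM scaling, filterByExpr, quasi-likelihood, Benjamini-Hochberg). Alternatives were DESeq2 1.42.0, limma 3.58.1 on log2 FPKM with a pseudocount, other scalings and filters, a replicate block and libraries left out. Tested on simulated counts of the CK spread, edgeR recovered most of the largest folds and none of the smaller ones. P-values measure the spread between these samples, which may be technical. Named genes had an informative description and at least 5 FPKM in the higher group, up to 10 per pattern and direction with the widest gap (no gene was called, so none was named for a call), plus up to 3 per list with the smallest p and at least 1 FPKM. The 37 lists are search patterns over descriptions. Members, lists and patterns were chosen with earlier results of these data known. No coordinates or sequences are given.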

Additional observations from a re-analysis of the deposited data

How the results depend on the processing

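Between resistant and susceptible CK libraries edgeR called 0 genes, and 0 under every alternative run except DESeq2 (274) and leaving out 3 libraries (756), a fit in which the first susceptible library is the lone one of its class. Replicate numbers did not pair the samples (correlations of deviations from -0.11 to 0.23 in CK and from -0.15 to 0.09 under BV-3). With a replicate block edgeR called 0 genes in CK and 1758 under BV-3, against 5349 without it, and DESeq2 called 8120 under BV-3. Patterns are descriptions and depend on their cut. Label genes higher in resistant numbered 26 with a pseudocount of 2, 6 at a doubled fold, and 149 to 349 when 1 library was left out (349, 178 and 175 without the first, second and the third susceptible library, 244, 231 and 149 without the first, second and the third resistant one). Label genes higher in susceptible numbered 120 on FPKM, 15 at a doubled fold and 274 to 757 with 1 library left out (621, 613 and 304, then 757, 274 and 433, in the same order). The first susceptible library was alone higher in 115 genes with a pseudocount of 2, in 76 at a doubled fold and in 955 over all genes, a setting chosen after seeing the data, and alone lower in 249 and 310 under the first and second of these. Of label genes called under BV-3 in the same direction, DESeq2 gave 28 and 30 and the replicate block 8 and 9 (resistant and susceptible higher), and leaving out 1 library gave 9 to 15 of the latter. Of the alone lower genes the block gave 357. For single genes, 1799 log2 fold changes kept direction and side, 60 passed the threshold under an alternative, and 16 reversed. Without the 3 libraries the reversed values were -0.08 (Zm00001eb321000), -0.54 (Zm00001eb099000), -0.68 (Zm00001eb123070), 0.18 (Zm00001eb341960), -0.68 (Zm00001eb135830) and -0.45 (Zm00001eb428040). Without the second and the third susceptible libraries, and without all 3, Cyclin-A3-2 (NewGene_24712) gave 2.11 and 1.98 and Zm00001eb249020 0.38 and 0.58. With 1 library left out, Zm00001eb023070 ranged from -1.24 to 7.21, Zm00001eb391690 from -2.12 to 5.99 and Zm00001eb332020 from -0.36 to 4.32, the lowest without the second resistant library, and without all 3 they gave -2.71, -3.43 and -0.99. The cause was not tested. Of list medians, 483 moved by less than the spread and 72 by more.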
